A study of Mus musculus with 4 samples.

Results

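Stefins and cystatins are protease inhibitors that block cysteine proteases of the papain family. Type 1 inhibitors, the stefins (stefin A and stefin B), lack a signal peptide and act inside the cell, whereas type 2 inhibitors such as cystatin C and cystatin M/E are secreted. Human skin has 1 stefin A, which is a component of the cornified envelope, and the mouse has a family of stefin A copies side by side on chromosome 16. The genes described here are 9 rows of the deposited count table of 56493 genes, found by their gene names. They comprise 6 stefin rows of chromosome 16 (Stfa1, Stfa2, Stfa3, Stfa2l1, Cstdc5 and Cstdc6), Cstb (stefin B), Cst3 (cystatin C) and Cst6 (cystatin M/E). The genes were chosen with the difference between the genotypes already known, so that their differences are given below as a description, without p-values.

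RNA came from the epidermis of the back of mice. The knockout group (cKO) lacked Stim1 and Stim2, the calcium sensors of the endoplasmic reticulum that trigger store-operated calcium entry, through a Cre recombinase under the keratin 14 promoter (K14-Cre). This Cre acts in keratin 14-expressing epithelium, from which hair follicle and sebaceous gland cells also derive, and not in dermal or immune cells. The control group carried the floxed Stim1 and Stim2 alleles (Flox/Flox), whether with or without Cre is not stated, and the comparison asks what the loss of both sensors does to epidermal RNA. Each group had 2 libraries. Age, sex and strain are not given in the sources used here. The labels number the libraries without saying whether they came from different mice, so p-values and SDs describe the spread between these libraries, which may be technical.

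The libraries were shallow, with 118858 to 322426 counts each and the lowest total in cKO replicate 2. A value of 3 counts, the most that a count of 0 allows, stood for 9.58 to 33.7 CPM (counts relative to the library size after TMM scaling), and this limit covers counting error only. Counts of Stim1 were 23 and 6 (cKO) against 24 and 62 (control), and those of Stim2 0 and 1 against 3 and 18, so that in CPM both cKO libraries lay below both control libraries for each gene. Whether the deleted exons lie in the part of the transcript that was counted is not given in the sources used here. All 10 keratinocyte markers examined, among them Krt5, Krt14, Krt1 and Krt10, had counts in every library, and their sum was 13140 to 22090 CPM with overlapping groups. Single keratinocyte markers moved in both directions within this sum. Krt14 was at 4355 and 3001 CPM in cKO against 928.5 and 865.4 in control. Krt1 was at 331.6 and 146.1 CPM against 69.4 and 83.0. Both cKO libraries lay below both control libraries for Krt15, Dsg1a and Dsp, and the groups of the other markers overlapped. Markers of other cells differed between the genotypes too. The summed CPM of 6 muscle genes was 16.2 and 67.4 in cKO and 1259 and 884.6 in control. That of 7 hair follicle genes was 408.4 and 348.4 against 1398 and 1293. Only 1 of these 7 reached 10 counts in a library, and Krt27, Krt33a and Krt35 were at 0 in all. That of 5 T cell genes was 68.7 and 168.6 against 277.5 and 217.2. The part of these cells in the differences given below was not tested.

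The coding sequences show how alike the copies are, which matters for reading their counts one by one. The last 90 coding bases before the stop codon, taken from GENCODE M21 transcripts, are given for the 6 stefin rows and for Csta1, a further stefin A gene beside the cluster. Capitals mark bases that differ from Cstdc5.
Cstdc5: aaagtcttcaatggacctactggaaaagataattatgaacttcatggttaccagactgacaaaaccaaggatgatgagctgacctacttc
Cstdc6: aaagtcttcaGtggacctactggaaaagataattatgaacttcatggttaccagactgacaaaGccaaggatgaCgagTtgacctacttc
Stfa1: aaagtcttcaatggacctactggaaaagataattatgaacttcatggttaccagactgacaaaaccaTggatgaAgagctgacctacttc
Stfa3: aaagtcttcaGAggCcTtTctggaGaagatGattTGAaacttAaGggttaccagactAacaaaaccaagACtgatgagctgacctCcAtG
Stfa2: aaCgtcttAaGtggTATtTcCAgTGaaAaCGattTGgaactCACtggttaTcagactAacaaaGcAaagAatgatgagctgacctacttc
Stfa2l1: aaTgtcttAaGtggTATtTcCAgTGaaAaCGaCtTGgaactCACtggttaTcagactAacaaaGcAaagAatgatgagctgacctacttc
Csta1: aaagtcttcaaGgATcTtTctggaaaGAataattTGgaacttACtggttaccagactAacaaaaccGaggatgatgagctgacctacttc
Over this stretch Stfa1 differed from Cstdc5 at 2 bases and Cstdc6 at 4, while Csta1 differed at 13, Stfa3 at 18, Stfa2 at 24 and Stfa2l1 at 25.

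Over the whole coding sequence the stefin rows fell into 3 sets. Cstdc5 shared 97.9% of its bases with Stfa1 and 95.9% with Cstdc6. Stfa2 and Stfa2l1 shared 96.4%. Stfa3 shared at most 83.7% with any other of the 6 rows, and Csta1 at most 83.2%. Cstb, the stefin B gene, shared 59.1% to 60.9% with the 6 rows. Of the 50-base windows of the last 200 transcript bases, 51.7% in Stfa1, 43.7% in Cstdc5 and 23.8% in Cstdc6 occurred letter for letter in the transcripts of another gene. The same share was 9.3% in Stfa2 and in Stfa2l1, and 0% in Stfa3, Cstb, Cst3 and Cst6. With windows of 100 bases the share in these last 200 bases was 0% in all 9 genes. Over whole transcripts the 100-base share was 22.3% in Cstdc5, 13.5% in Cstdc6 and 5.6% in Stfa1, and 0% in the others. The 50-base share over whole transcripts was 48.9% in Cstdc5, 33.7% in Cstdc6, 26.9% in Stfa1, 24.6% in Stfa2l1 and 15.9% in Stfa2. Read length and the treatment of reads with several matches are not given in the sources used here, so counts of Cstdc5, Cstdc6 and Stfa1 are uncertain as single genes and are also given as a sum. Exons of Cstdc5 share 145 bases with Gm15845 on the opposite strand, and use of strand in the counting is not stated.

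The 6 stefin rows together had a few counts in control epidermis and far more in the knockout. They summed to 1722 and 670 counts in the cKO libraries, and to 6 and 8 in the control libraries. This was 0.61% (95% Wilson interval 0.582% to 0.64%) and 0.564% (0.523% to 0.608%) of all counts in the cKO libraries, against 0.003% (0.00137% to 0.00654%) and 0.00248% (0.00126% to 0.0049%) in the control libraries. In CPM the sum was 7246 ± 401 (SD, n = 2) in cKO and 28.8 ± 4.57 (SD, n = 2) in control, 252-fold higher in cKO. When each library was left out in turn the fold lay between 226 and 284. The libraries of each genotype were close to each other in this sum. The CPM of cKO replicate 1 was 0.925 of that of cKO replicate 2, with a counting interval of 0.845 to 1.01.

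**Figure D1:**
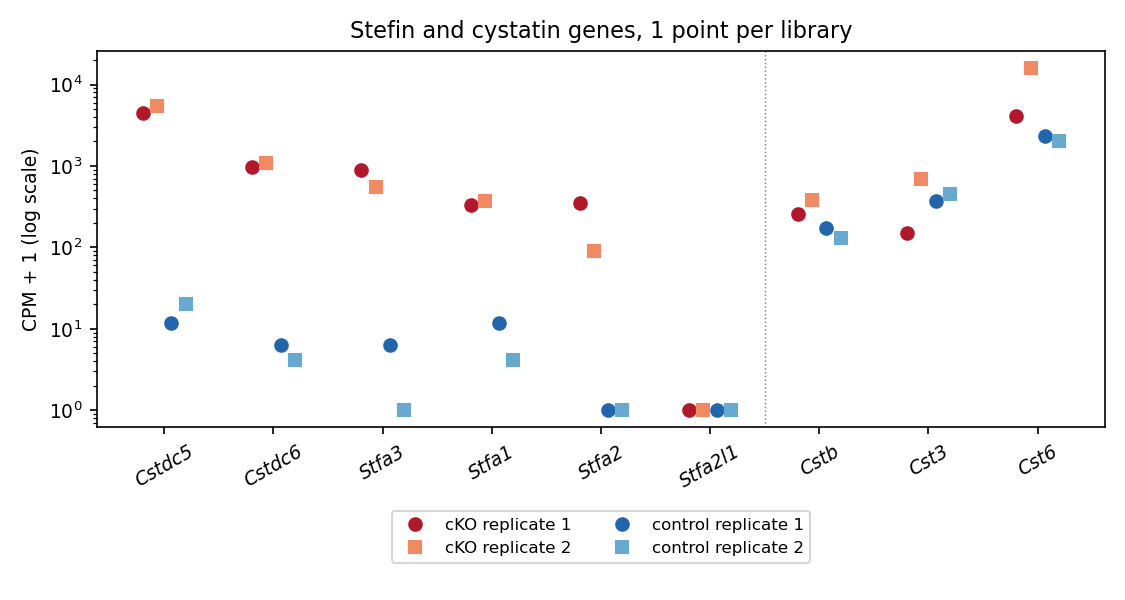
Normalised count of each stefin and cystatin gene (CPM + 1, log axis) in the 4 libraries, 1 point per library, with the stefin rows of chromosome 16 left of the dotted line. For 5 stefin rows both cKO points lie far above both control points, Stfa2l1 is at 0 in all 4 libraries (drawn at 1), and Cst3 has its lowest and highest value in the 2 cKO libraries.

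Cstdc5 (ENSMUSG00000071561, chromosome 16, 36179744 to 36188110, minus strand) was the stefin row with the most counts. The cKO libraries held 1091 and 482 of its counts and the control libraries 2 and 6, or 4411 and 5417 CPM against 10.7 and 19.2 CPM. Its log2 fold change was 8.24 with a standard error of 0.63. The spread within each genotype was small beside the gap between the genotypes. Coordinates here are those of the deposited table, for which the submitters' processing notes name GRCm39.

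Cstdc6 and Stfa1, the close copies of Cstdc5, were also higher in both cKO libraries than in both control libraries. Cstdc6 (ENSMUSG00000079594, 36142027 to 36154694, minus strand) was counted 243 and 98 times in cKO and once in each control library. The ratio of its pooled CPM was 254, with a counting interval from 69.7 to 2100. Stfa1 (ENSMUSG00000071562, 36097313 to 36105735, plus strand) was counted 81 and 33 times against 2 and 1, a ratio of 56.6 with an interval from 18.9 to 278. The difference between cKO replicates was within counting error for both genes, since the CPM of replicate 1 was 0.892 (0.703 to 1.14) of that of replicate 2 for Cstdc6 and 0.883 (0.582 to 1.37) for Stfa1. Summed, Cstdc5, Cstdc6 and Stfa1 reached 1415 and 613 counts (cKO) against 5 and 8 (control), or 6305 ± 826 CPM (SD, n = 2) against 26.1 ± 0.80 CPM (SD, n = 2). This sum, 241-fold higher in cKO, does not depend on how reads were divided among the 3 copies.

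Stfa3 (ENSMUSG00000054905, 36270899 to 36275754, minus strand) is the stefin whose last bases were in no other transcript, so its counts are the least open to exchange with copies. Its counts were 221 and 49 (cKO) against 1 and 0 (control), or 894 and 551 CPM against 5.34 and 0. The pooled ratio was 402 with a counting interval from 71.5 to 15900. The log2 fold change was 8.11 with a standard error of 0.81, and it was 10.3 when control replicate 1, the only control library with a count, was left out, and 6.93 when control replicate 2 was.

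Stfa2 and Stfa2l1, the other pair of close copies, differed from each other. Stfa2 (ENSMUSG00000022902, 36224354 to 36228819, minus strand) was counted 86 and 8 times in cKO and was at 0 in both control libraries. Its cKO mean was at least 17.1-fold higher than 3 counts in each control library, a bound that was 27.2 with cKO replicate 1 alone and 7.03 with cKO replicate 2 alone. Stfa2l1 (ENSMUSG00000059657, 35977181 to 35982323, plus strand) had 0 counts in all 4 libraries, which allows at most 12.1 and 33.7 CPM in the cKO libraries. It was not tested. The end of its transcript shares few 50-base windows with Stfa2, as given above.

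Of the 9 genes, 8 passed the count filter of the edgeR fit, and Stfa2l1 did not. At an adjusted p under 0.05 the fit called 5 of the 8 higher in cKO, namely Cstdc5, Cstdc6, Stfa1, Stfa2 and Stfa3, and called 0 lower. Over all 4243 genes tested 0.66% were called higher and 0.189% lower. Cstb, Cst3 and Cst6 were not called. Both cKO libraries lay above both control libraries in 7 of the 8 genes and below them in 0, orders that 18.9% and 19.6% of all tested genes showed. These counts carry no weight as support, because the same contrast chose the genes and because the stefin rows passed the filter only through their cKO counts. With limma-voom only Cstdc5 was called, where 0.283% of all genes were called higher. DESeq2 and edgeR without a count filter called 6, Cst6 being added, where 0.825% and 0.285% of all genes were called higher.

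The make-up of the stefin counts was not the same in the 2 cKO libraries. Stfa2 contributed 4.99% (95% Wilson interval 4.06% to 6.13%) of them in cKO replicate 1 and 1.19% (0.606% to 2.34%) in cKO replicate 2. Stfa3 contributed 12.8% (11.3% to 14.5%) and 7.31% (5.58% to 9.54%). Cstdc5 contributed 63.4% (61.1% to 65.6%) and 71.9% (68.4% to 75.2%). For these 3 genes the intervals did not overlap, whereas those of Cstdc6 (14.1% and 14.6%) and Stfa1 (4.7% and 4.93%) did. In CPM, Stfa2 was 3.87-fold (1.88 to 9.24) and Stfa3 1.62-fold (1.19 to 2.26) higher in cKO replicate 1 than in cKO replicate 2, while Cstdc5 was at 0.814 (0.731 to 0.908). The intervals cover counting error only, and differences between animals and between preparations cannot be told apart with these libraries.

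**Figure D2:**
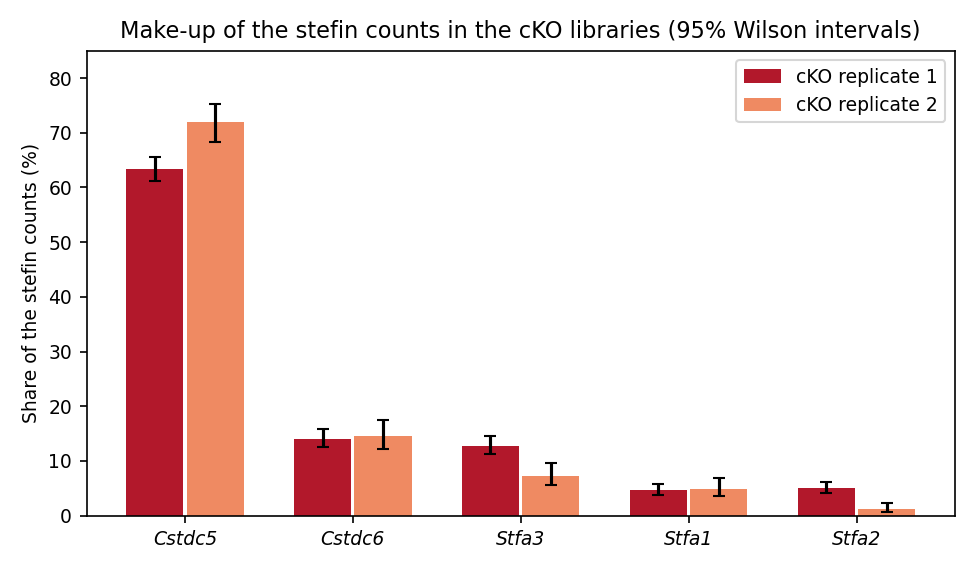
Share of the stefin counts of a library that each gene took in cKO replicate 1 and cKO replicate 2 (percent, bars from 0, error bars are 95% Wilson intervals). Stfa3 and Stfa2 take larger shares in replicate 1 (12.8% and 4.99%) than in replicate 2 (7.31% and 1.19%), and Cstdc5 a smaller one.

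On the chromosome the 6 stefin rows span 298.6 kb, from Stfa2l1 to Stfa3. Among them the table lists Csta2, Csta3, Cstdc4 and the pseudogene Cstdc3, and Csta1 lies just before them, which makes 11 cystatin rows by gene name. The unprocessed pseudogene Gm49652, between Stfa2 and Stfa3, is not among these rows, although it shares 50-base windows with Stfa2 and Stfa2l1. Its counts were 5 and 1 in cKO against 0 and 0 in control. The 4 minus-strand stefin rows, Cstdc6, Cstdc5, Stfa2 and Stfa3, all had high cKO counts. Of the plus-strand rows, Stfa1 did, while Stfa2l1, Cstdc4 and Csta2 had 0 counts in every library, and Csta3 and Cstdc3 had 1 count each, in cKO replicate 1. Of the 11 cystatin rows 9 were followed, 60 to 134 bases after the 3' end and on the opposite strand, by a small nuclear RNA row, and those rows had 0 counts. The exceptions were Csta1 and Stfa3.

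Csta1, 25.6 kb before Stfa2l1, was the cystatin row of this region with the most counts in control epidermis. Its counts were 34 and 11 (cKO) against 17 and 53 (control), or 130.6 CPM against 130.0 CPM on average, with overlapping groups. Its log2 fold change was -0.01, standard error 0.50, in edgeR (adjusted p 0.998), and it lay between -0.36 and 0.55 over the alternatives. A difference between Csta1 and the stefin rows was not tested, since the latter were chosen on this contrast.

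**Figure D3:**
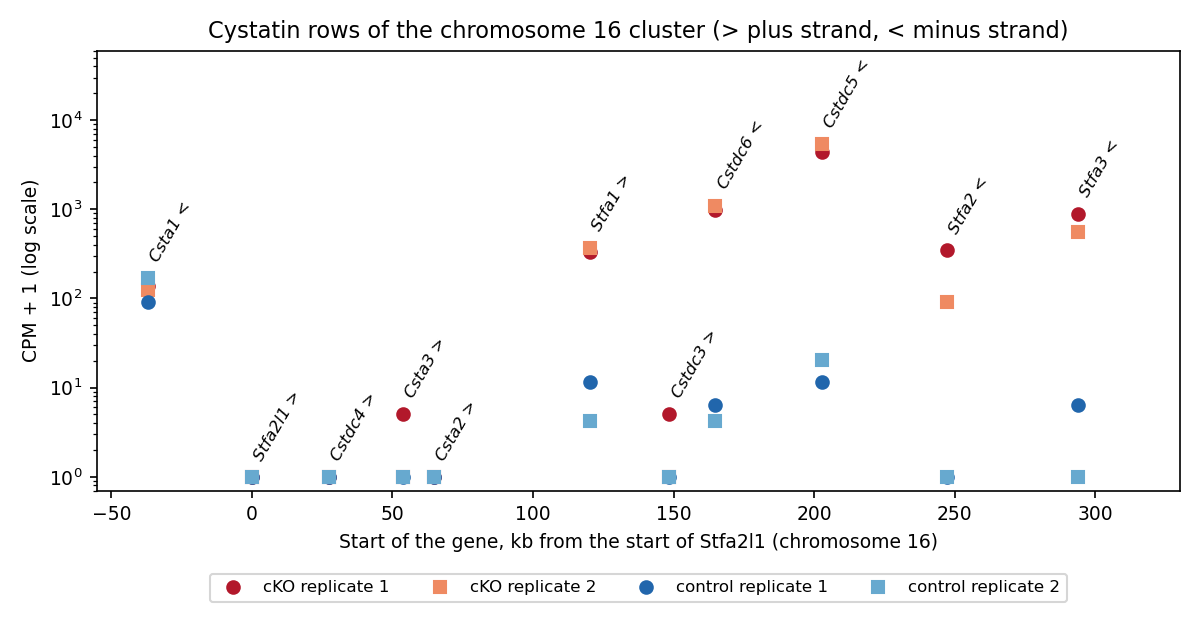
Normalised counts (CPM + 1, log axis) of the 11 cystatin rows of the chromosome 16 cluster against the start of each gene in kb from the start of Stfa2l1, 1 point per library; > and < give the strand, and rows at 0 counts are drawn at 1 with their points on top of each other. The cKO points of Stfa1, Cstdc6, Cstdc5, Stfa2 and Stfa3 stand above the control points, while the 4 points of Csta1 lie together.

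The neighbourhood of the cluster was examined to see whether the difference extended beyond the stefins. Within 1 Mb on either side of the 6 rows the table has 81 other rows, of which 31 had a count and 5 were tested. Of these 5, edgeR called 0 in either direction, and DESeq2 and limma-voom also called 0. Over all genes tested 0.848% were called. Fam162a, a mitochondrial protein gene on the Csta1 side, was counted 168 and 37 times in cKO against 32 and 44 times, with a log2 fold change of 1.84 and a standard error of 0.45 (edgeR adjusted p 0.099). Both its cKO values lay above both control values, and it passed the threshold without cKO replicate 2 (log2 fold change 2.14, adjusted p 0.00567, where the adjusted p over the alternatives to the edgeR fit ran from 0.000425 to 0.49). On the other side the nearest tested rows were Golgb1 (33 and 17 counts against 55 and 117, log2 fold change -1.08, edgeR adjusted p 0.502) and Gm49599, which starts at the same base (-0.72, adjusted p 0.884). Casr, the calcium-sensing receptor gene 38.3 kb beyond Stfa3, had 0 counts in all 4 libraries.

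The promoters of the stefin copies are shown because the copies with high cKO counts and Stfa2l1, which was at 0, resemble each other there. RefSeq promoter sequences (GRCm38.p6) matched 6 of the 9 genes, Cst3 among them, and Csta1, with Cstdc6, Cstb and Cst6 not matched. The 150 bases before the annotated start follow, 5′ to 3′ on the gene's strand, with the letters TTTAAAA in capitals where they occur.
Cstdc5 (chr16:36367571-36367720, minus strand): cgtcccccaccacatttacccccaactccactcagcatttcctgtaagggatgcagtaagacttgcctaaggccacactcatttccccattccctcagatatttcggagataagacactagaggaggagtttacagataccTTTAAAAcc
Stfa1 (chr16:36276998-36277147, plus strand): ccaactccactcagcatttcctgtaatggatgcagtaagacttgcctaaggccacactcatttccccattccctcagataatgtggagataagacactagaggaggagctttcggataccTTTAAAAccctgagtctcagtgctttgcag
Stfa3 (chr16:36455393-36455542, minus strand): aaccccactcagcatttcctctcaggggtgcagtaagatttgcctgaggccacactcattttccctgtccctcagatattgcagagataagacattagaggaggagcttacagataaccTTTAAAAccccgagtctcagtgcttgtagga
Stfa2 (chr16:36408364-36408513, minus strand): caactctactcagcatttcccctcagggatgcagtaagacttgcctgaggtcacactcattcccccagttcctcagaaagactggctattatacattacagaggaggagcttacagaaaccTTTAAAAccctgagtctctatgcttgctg
Stfa2l1 (chr16:36156661-36156810, plus strand): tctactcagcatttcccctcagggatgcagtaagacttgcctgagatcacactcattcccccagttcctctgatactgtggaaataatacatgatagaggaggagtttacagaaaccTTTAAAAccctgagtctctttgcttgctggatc
Csta1 (chr16:36131190-36131339, minus strand): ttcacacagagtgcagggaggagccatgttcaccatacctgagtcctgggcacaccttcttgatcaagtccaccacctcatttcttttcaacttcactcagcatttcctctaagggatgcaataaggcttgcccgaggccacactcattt
Over the part that could be aligned, 126 to 130 bases, the stretch of Cstdc5 was 94.6% identical to that of Stfa1, 89.1% to Stfa3, 84.1% to Stfa2l1 and 82.3% to Stfa2. Csta1 could be aligned over 84 bases with 83.3% identity.

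TTTAAAA, a run picked after the sequences were seen, lay 29 to 33 bases before the start in Stfa1, Stfa2, Stfa3 and Stfa2l1 and 9 bases before it in Cstdc5. On either strand it occurs in 4.2% of 32544 RefSeq promoter stretches of this length. These are called all stretches here, although duplicates and the promoters of chromosome 18 were left out. The core AGATAA, read by GATA factors, was found in Cstdc5, Stfa1 and Stfa3 and not in Stfa2, Stfa2l1 or Csta1, and 5.7% of all stretches hold it on either strand. The Csta1 stretch ends at letters that in Cstdc5, Stfa1 and Stfa3 come before AGATAA and TTTAAAA. The matching part of Csta1 would lie past its annotated start and was not read, so the absence there depends on that start. Copies with 1 count or none held these letters too. Csta3 had AGATAA at 2 places and TTTAAAA 77 bases before the start, Cstdc4 had TTTAAAA 29 bases before it, and their stretches were 86.6% and 84.0% identical to that of Cstdc5. The core GGAAA, which NFAT and ETS factors read, was found in all 6 and is held by 37.7% of all stretches. The AP-1 letters TGANTCA were in none of the 6 and are in 4.2% of all stretches, and GAGGAAG, a core of PU.1 that holds the GGAA of the former, was in none and is in 6.9%. Stfa2l1 thus had the same TTTAAAA and GGAAA letters as the stefins with high cKO counts. A match of letters is a description of the sequence and not a bound site.

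Stefin A genes are also known from neutrophils and their precursors, so markers of these cells were read in the same libraries. Of 20 neutrophil markers, 15 had 0 counts in all 4 libraries, among them Ngp, Camp, Ltf, Ly6g, Elane, Mpo, Cxcr2 and Csf3r. The sum of the list was 97.0 and 56.2 CPM in cKO and 112 and 95.8 CPM in control, with overlapping groups. The 5 genes with a count were Il1r2 (23 and 2 in cKO, 15 and 17 in control), Mmp9 (0 and 0, 5 and 9), Itgam (0 and 0, 0 and 3), Retnlg (0 and 2, 1 and 1) and Chil3 (1 and 1, 0 and 0). In the same cKO libraries the stefin sum stood at 6963 and 7530 CPM. The part of neutrophils and their precursors in the stefin values was not tested. A further list held 4 genes shared with other cells, namely S100a8 and S100a9, which keratinocytes express too, Lcn2 and Wfdc21. S100a8 was counted 8 and 5 times (cKO) and 2 and 3 times (control). For S100a9 these values were 3 and 2 (cKO) and 0 and 0 (control). Lcn2 had 1 count, in control replicate 1. Wfdc21 stood at 242 and 27 (cKO) and at 67 and 484 (control). The list summed to 1023 and 382.1 CPM (cKO) and to 373.5 and 1555 CPM (control), with overlapping groups, and most of this sum was Wfdc21. S100a8 was at 32.4 and 56.2 CPM in cKO against 10.7 and 9.58 in control, and S100a9 at 12.1 and 22.5 against 0 and 0. Both cKO libraries thus lay above both control libraries for these genes, an order that 18.9% of all tested genes showed. The groups of Lcn2 and Wfdc21 overlapped.

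Cstb encodes stefin B, the intracellular inhibitor found in most cell types. The counts were 64 and 34 (cKO) against 32 and 40 (control), or 320.4 ± 87.2 CPM (SD, n = 2) against 149.2 ± 30.4 CPM (SD, n = 2). Both cKO values lay above both control values. The mean was 2.15-fold higher in cKO, with a log2 fold change of 1.09 and a standard error of 0.46, and the log2 fold change lay between 0.81 and 1.32 over the alternatives. It is on chromosome 10, from 78261503 to 78263456, away from the stefin A copies.

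Cst6 encodes cystatin M/E, a secreted inhibitor of the granular layer and of skin appendages that acts on cathepsins and on legumain and whose loss in the mouse disturbs cornification. Cst6 (chromosome 19, 5394733 to 5399602, minus strand) was counted 1007 and 1426 times in cKO against 435 and 642 times. In CPM these were 4072 and 16030 against 2321 and 2050. Both cKO libraries lay above both controls, but they differed from each other far more than counting error allows, cKO replicate 1 being at 0.254 (0.234 to 0.276) of cKO replicate 2. The log2 fold change was 2.20 with a standard error of 0.59, and it was 0.90 without cKO replicate 2 and 2.83 without cKO replicate 1. In cKO replicate 2 this gene alone took 1.2% of all counts (95% Wilson interval 1.14% to 1.26%).

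The summed sebaceous gland markers had the same order of libraries as Cst6, although of the single genes only Elovl3 did. The sum of 6 such genes (Scd1, Mc5r, Plin2, Fabp5, Awat1 and Elovl3) was 1512 and 3113 CPM in cKO and 907 and 849.5 CPM in control, with at least 5 of the 6 detected in each library. Of the 5 tested by edgeR 1 was called, Fabp5, a fatty acid binding protein gene that keratinocytes express too (log2 fold change 2.31, adjusted p 0.0424), where 0.66% of all genes tested were called higher. Awat1, a wax synthesis gene of the gland, had 48.5 and 247.2 CPM against 85.4 and 57.5, with overlapping groups. Elovl3, a fatty acid elongase gene of this list, was also the tested gene whose profile over the 4 libraries was nearest to that of Cst6, at a distance of 0.0221 log2 units where the median distance of all genes was 2.49. Its counts were 23 and 35 (cKO) against 9 and 13 (control). The part of sebaceous gland cells in the Cst6 values was not tested. In these bulk samples more cells of a type and more RNA per cell cannot be told apart.

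Gm52999, an unprocessed pseudogene of 163 bases that starts 10 kb beyond the 5′ end of Cst6 on the same strand, was the next nearest, at a distance of 0.183, with 175 and 281 counts against 88 and 129. Its count was 17.4%, 19.7%, 20.2% and 20.1% of that of Cst6 in cKO replicates 1 and 2 and control replicates 1 and 2. Whether it shares sequence with Cst6 was not examined. The third was Far1, a fatty alcohol synthesis gene, at a distance of 0.48.

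Cst3 encodes cystatin C, a secreted inhibitor that most cells make and that is abundant in dendritic cells, macrophages and fibroblasts. Cst3 (chromosome 2, 148713642 to 148717612, minus strand) was counted 37 and 61 times in cKO against 70 and 141 times. In CPM these were 149.6 and 685.6 against 373.5 and 450.3. The control values lay between the cKO values, and the group means, 417.6 ± 379 and 411.9 ± 54.3 CPM (SD, n = 2 each), differed by less than the spread between replicates. The log2 fold change of -0.05 (standard error 0.58) moved to -1.45 when cKO replicate 2 was left out and to 0.69 when cKO replicate 1 was. The fibroblast markers had the same order of the cKO libraries, with a sum over 8 genes of 52.6 and 775.5 CPM in cKO and 277.5 and 150.1 CPM in control. Of these 8, 4 to 7 were detected in a library and Pdgfra was at 0 in all. For the 15 macrophage, dendritic and Langerhans cell markers the sum was 1152 and 3630 CPM in cKO and 4130 and 2376 CPM in control, with 11 to 13 detected in a library and none at 0 in all. The part of these cells in the Cst3 values was not tested.

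**Figure D4:**
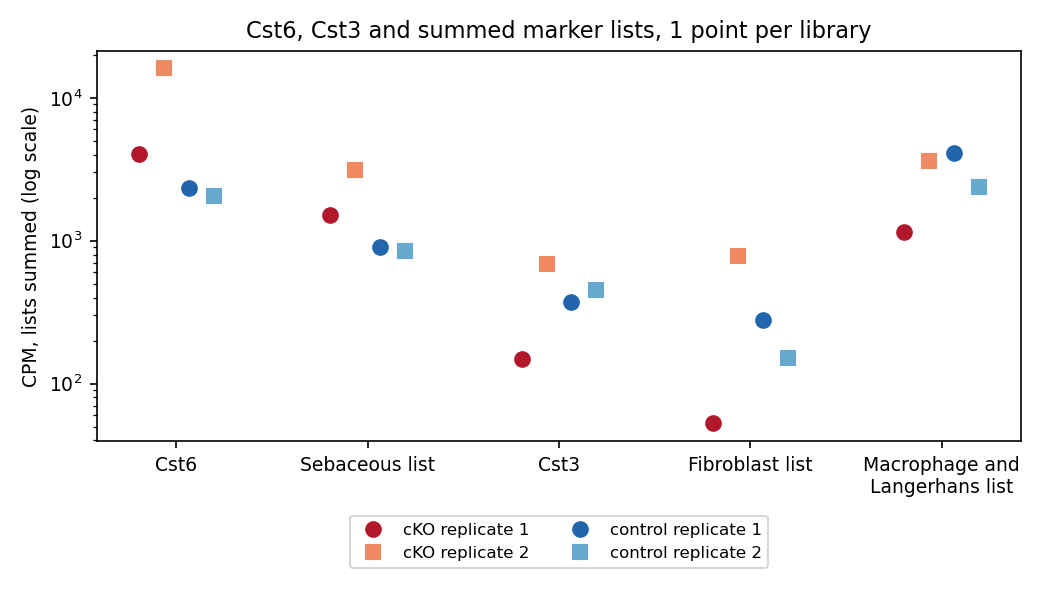
Cst6, Cst3 and the summed marker lists of sebaceous gland, fibroblasts, and macrophages with Langerhans cells (CPM, log axis) in the 4 libraries, 1 point per library. In cKO replicate 2 all 5 quantities exceed their value in cKO replicate 1, by 3113 against 1512 CPM for the sebaceous list and 775.5 against 52.6 CPM for the fibroblast list.

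Per kilobase of annotated length, the order of levels differed between the genotypes. In control the order was Cst6 (501 to 568 CPM per kb), Cst3 (295 to 356) and Cstb (212 to 283), followed at a distance by Cstdc5 (13.5 to 24.3). The ranges of the first 3 did not overlap. In cKO Cstdc5 came first (5580 to 6860 CPM per kb), and Cstdc6 (2540 to 2850), Cst6 (996 to 3920) and Stfa3 (1340 to 2170) followed. The range of Cst6 spanned those of Cstdc6 and Stfa3, so the order of these 3 is not settled. Cstb (429 to 634), Stfa1 (461 to 522), Stfa2 (191 to 738) and Cst3 (118 to 542) overlapped one another. The kit primes at the 3' end of transcripts, so that counts need not scale with length, and dividing by the length lowers Cst6 (4090 bases) most. Without this division Cst6 was at 4072 and 16030 CPM in cKO replicates 1 and 2. Cstdc5 was at 4411 and 5417 CPM, and Cstdc6 at 982.6 and 1101 CPM. The first place in cKO then differed between the libraries, and Cst6 lay above Cstdc6 in both.

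The genes nearest in profile to the stefin sum came from other gene families. On centred log2 CPM over the 4 libraries the 5 nearest tested genes were Sprr2a2 (distance 1.28), Sprr2a1 (1.35), Krt6b (2.31), Sprr2a3 (2.43) and Klk6 (2.58), where the median distance of all genes was 7.64. Sprr2a genes encode small proline-rich proteins of the cornified envelope, Krt6b a keratin of wounded or stressed epidermis and Klk6 a secreted serine protease. The cKO counts of Sprr2a2 were 221 and 120 against 1 and 1, and those of Klk6 were 61 and 32 against 0 and 0. Whether the Sprr2a rows share reads with one another was not examined. Profiles of 4 libraries in 2 groups rest on little more than the difference between the groups. The genes nearest to Cstb were Eif3h (a translation initiation factor subunit), Alox12e (an epidermal lipoxygenase) and Dbi (an acyl-CoA binding protein) (0.0717 to 0.107, median 1.45), and those nearest to Cst3 were Kmt2d, Prrg2 and Mpnd (0.203 to 0.245, median 1.8).

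The proteases that cystatins inhibit were read from a list of 15 genes, the papain-family cathepsins and legumain together with Tinagl1 and, as cathepsins of other classes that cystatins do not inhibit, Ctsd, Ctse and Ctsa. Of the 15, 12 had a count and 5 were tested. None was called by edgeR, DESeq2 or limma-voom, where edgeR called 0.848% of all genes tested. All 5 fold changes were above 0, with a median log2 fold change of 1.29, where the median over all genes tested was 0.01 and 50.4% were above 0. Of the 5, Ctsd and Ctsa are not cystatin targets, and Ctsb turned to -0.41 without cKO replicate 2. Ctsf, the cathepsin F gene, which did not pass the filter, had 0 and 1 counts in cKO and 11 in each control library, with groups that did not overlap. Ctsl, whose product cathepsin L is a target of cystatin M/E, was counted 75 and 39 times in cKO against 9 and 52 times, and its groups did not overlap. Its log2 fold change was 1.71 with a standard error of 0.55 (edgeR adjusted p 0.287). It passed the threshold without cKO replicate 1 (log2 fold change 1.92, adjusted p 0.0438) and without control replicate 2 (2.92, adjusted p 0.027), where the adjusted p over the alternatives to the edgeR fit ran from 0.00363 to 0.998.

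The other tested cathepsins had smaller differences or wider errors. Ctsd, the aspartic protease cathepsin D, was counted 159 and 103 times against 86 and 154 (log2 fold change 0.91, edgeR adjusted p 0.632). Ctsb, cathepsin B, had 40 and 42 counts against 40 and 69 (0.48, adjusted p 0.928), and its groups overlapped. Ctsa, a serine carboxypeptidase, had 26 and 11 against 4 and 14 (1.70, adjusted p 0.465). Ctsh had 16 and 10 against 1 and 18 (1.29, adjusted p 0.785). Lgmn, the legumain gene, was counted once in each cKO library and 5 and 3 times in control, and did not pass the filter.

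Transglutaminases join cornified envelope proteins, stefin A among them, and transglutaminase 3 is activated by cathepsin L. Of the 4 genes examined, Tgm1, Tgm2, Tgm3 and Tgm5, only Tgm3 was tested. Counts of Tgm3 were 12 and 0 (cKO) against 23 and 50 (control), with a log2 fold change of -2.15 and a standard error of 0.76 (edgeR adjusted p 0.368). Both cKO values lay below both control values. Without cKO replicate 1 it was called (adjusted p 0.00572, where the range over the alternatives was 0.00572 to 0.878), its cKO value then being a single library at 0. Tgm1 had 14 and 0 counts against 0 and 10, so that each group held a library at 0.

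The rest of the cystatin superfamily had few or no counts at this depth. Of 28 names on the list, 21 were in the table, 7 of these had a count, and Csta1 alone reached 10 counts in a library and was tested. Cst7, the leukocystatin of lymphoid and myeloid cells, had 0 and 3 counts against 0 and 6. The testis- and epididymis-expressed cystatin genes Cst8, Cst9, Cst11, Cst12 and Cst13 and the liver genes Ahsg, Fetub, Hrg and Kng1 had 0 counts in all 4 libraries.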

How the data were processed

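Back skin was shaved and dissected, the epidermal sheet was freed with sodium thiocyanate, and 3' transcriptome libraries (QIAseq UPX) were adapted for MGI sequencing, per the labels' protocols. The authors deposited 1 table of raw counts per gene for 4 libraries; 0 further sample columns were left unused. The submitters' processing notes name Trim Galore 0.6.7, Trimmomatic 0.39, cutadapt 3.7, STAR 2.7.10a, featureCounts 2.0.1 and GRCm39, without roles. The use of molecular identifiers, strand and reads with several matches is not given in the sources used here.

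cKO was compared with control in edgeR 4.0.16 (R 4.3.3): filterByExpr (minimum count 10, minimum total 15) kept 4243 genes with 87.6% of counts, followed by TMM scaling, glmQLFit, glmQLFTest (design: genotype alone) and Benjamini-Hochberg adjustment with a threshold of 0.05. CPM use the TMM-scaled sizes of these genes. Standard errors are the absolute log2 fold change over the square root of F. Ratios of pooled counts have exact conditional 95% intervals. Likeness of profiles is the Euclidean distance of centred log2 CPM (prior count 2). Alternatives were other scalings, filters, DESeq2 1.42.0, limma-voom (limma 3.58.1), the replicate number as a block, each library left out in turn and the stefin rows summed. Tested on simulated counts, the fit recovered 91% to 94% of 200 changed genes among 4243 (log2 size 3 or 4, 3 draws). Smaller changes were not simulated, so this recovery does not apply to genes with smaller fold changes that were not called.

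The genes, lists and tests were chosen with earlier results of these data known. Named genes were all 9 members, other cystatin genes with at least 10 counts in a library, called and the 4 most abundant genes of the protease and transglutaminase lists, called and nearest tested neighbours with Casr, and the most alike genes; Fam162a, Ctsa, Ctsf, Ctsh, Fabp5, Awat1, Lgmn, Tgm1, Cst7, S100a8, S100a9, the other marker genes and those at 0 were named after their values were seen. Coding sequences came from GENCODE M21 (GRCm38) by gene ID and promoters from RefSeq by symbol; their coordinates were not combined with those of the table.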

Additional observations from a re-analysis of the deposited data

How the results depend on the processing

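The 5 calls among the stefin rows were made under every scaling tried, under both other filters and in each fit with a library left out in which the gene was tested; Stfa2 was not tested without cKO replicate 1. With limma-voom 1 gene was called, Cstdc5, and with the stefin rows summed before the fit the single summed row was the 1 call, with a log2 fold change of 7.97 (standard error 0.59). DESeq2 and the fit without a count filter called 6 genes, Cst6 being added, where 0.825% and 0.285% of all genes were called higher, and Cst6 was called without cKO replicate 1. With each library left out in turn 5 members were called in each fit. The fold of the stefin sum was 210 with library totals as the only scaling, 46.5 when all cystatin rows of the cluster, Csta1 included, were added, and 226 to 284 with each library left out. Library totals moved the median log2 fold change of all genes to -0.24. With the replicate number as a block, 5 members, 0 proteases and 0 neighbours were called, as without it, although over all genes higher calls went from 28 to 16 and lower calls from 8 to 1. The deviations of libraries with the same number had a correlation of -0.20 over genes, which gives no sign of a pairing. With 2 libraries per group this value cannot show that the numbers do not pair the libraries. With the numbers crossed, an alternative chosen after seeing the data, 6 members, 1 protease, 1 neighbour and, lower, 1 transglutaminase were called, where calls over all genes rose to 90 higher and 57 lower. With each library left out in turn, 0 to 1 proteases and 0 to 1 neighbours were called higher and 0 to 1 transglutaminases lower, where 34 to 59 of all genes were called higher and 8 to 34 lower. Depth limits the control values of the stefins, which rest on 0 to 6 counts per gene, and cKO replicate 2, in which 3 counts stand for 33.7 CPM.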
